A study of Mus musculus with 12 samples.

Results

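The 5 muscarinic acetylcholine receptors of the mouse, Chrm1, Chrm2, Chrm3, Chrm4 and Chrm5, were followed through RNA sequencing of the hippocampus and the cerebellum of Syt14 knockout and wild-type mice. They were taken by gene symbol, and all 5 of them are among the 54446 genes in the count tables. The 12 libraries form 4 groups of 3: hippocampus of mice labelled SYT14 knockout (KO), hippocampus of wild-type mice (WT), cerebellum of KO mice and cerebellum of WT mice. The same 6 animals, 3 of each genotype, gave both tissues. For strain, age, sex, treatment and the altered part of Syt14, nothing is stated in the labels used here. The study set out to relate Syt14, a synaptotagmin family gene, to mood disorder and motor coordination.

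Acetylcholine acts on muscarinic receptors, which signal through G proteins, and on nicotinic receptors, which are ion channels. Chrm1, Chrm3 and Chrm5 couple to Gq, which activates phospholipase C and closes the M-type potassium channels built from Kcnq subunits. Chrm2 and Chrm4 couple to Gi and Go, which inhibit adenylyl cyclase and open the inwardly rectifying potassium channels built from Kcnj subunits. The hippocampus receives dense cholinergic input from the septum, and Chrm1 is known there as the receptor of pyramidal cells. Cholinergic input to the cerebellum is sparser and comes in large part from the vestibular nuclei of the brainstem.

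Library totals were between 24932098 and 30504437 counts in the hippocampus, and between 24355572 and 34971359 in the cerebellum. Levels below are CPM, the counts of a gene per 1000000 counts of its library, and 3 counts, taken as the floor of detection, correspond to between 0.0858 and 0.123 CPM. Syt14 itself was read at 26.8 to 29.1 CPM in KO hippocampus against 35.9 to 37.3 CPM in WT hippocampus, and at 31.6 to 32.7 CPM in KO cerebellum against 35.0 to 39.5 CPM in WT cerebellum. The groups did not overlap in either tissue, as for 9.67% of all genes tested in hippocampus and 12% in cerebellum. The log2 fold change of -0.39 ± 0.06 (SE, n = 3) in hippocampus had an edgeR unadjusted p of 3.88e-05 and an adjusted p of 0.686. For that of -0.20 ± 0.06 in cerebellum the edgeR unadjusted p was 0.00897 and the adjusted p 0.644. The tissues matched their labels: 5 cerebellar granule cell markers summed to 135 to 182 CPM in hippocampus and 3250 to 3880 CPM in cerebellum, with Gabra6 at or under 3 counts in every hippocampus library. The 5 dentate granule cell markers summed to 281 to 375 CPM in hippocampus and 79.0 to 95.5 CPM in cerebellum. The contrast was smaller for the 8 markers of CA1 and CA3 pyramidal cells, at 1403 to 1569 CPM in hippocampus and 773 to 918 CPM in cerebellum. The column headers carry the token L1 for all hippocampus and L4 for all cerebellum libraries, so that this token and the tissue cannot be told apart. In bulk tissue, fewer cells of a type and less RNA per cell cannot be told apart either.

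Positions are those of GENCODE M21 on GRCm38. Chrm1 (ENSMUSG00000032773) lies on the plus strand at chr19:8663789-8683587 with 6487 bases of annotated exons. Chrm2 (ENSMUSG00000045613) lies on the plus strand at chr6:36388084-36528414 with 6053 bases of exons, and Chrm3 (ENSMUSG00000046159) on the minus strand at chr13:9875486-10360847 with 6253 bases. Chrm4 (ENSMUSG00000040495), plus strand, chr2:91927249-91928688, and Chrm5 (ENSMUSG00000074939), minus strand, chr2:112479171-112480769, are annotated with a coding length only, 1440 and 1599 bases. The annotation used for counting is not given. If it held further exons of Chrm4 or Chrm5, their reads were divided by too short a length, which would raise the levels per kilobase. If it did not, reads from such exons were not counted. Levels per kilobase of Chrm4 and Chrm5 carry this limit. Exons of Chrm2 share 142 bases with 9330158H04Rik, a lincRNA on the opposite strand that had 7 to 19 counts per library, and exons of Chrm1 share 329 bases with Gm22820, which had 0 counts. Chrm3, Chrm4 and Chrm5 share exon bases with no annotated gene.

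The promoter windows of the 4 receptors in the RefSeq promoter table (GRCm38.p6, 250 bases before to 50 after the start) are shown because Chrm3, Chrm4 and Chrm5 were many times higher in hippocampus while Chrm2 differed least between the tissues. Chrm1 has no entry in that table. The windows are chr6:36387834-36388133 on the plus strand for Chrm2, chr13:10360754-10361053 on the minus strand for Chrm3, chr2:91921939-91922238 on the plus strand for Chrm4 and chr2:112480768-112481067 on the minus strand for Chrm5. Capitals mark matches, on either strand, to GGGCGG or CCAAT.
Chrm2: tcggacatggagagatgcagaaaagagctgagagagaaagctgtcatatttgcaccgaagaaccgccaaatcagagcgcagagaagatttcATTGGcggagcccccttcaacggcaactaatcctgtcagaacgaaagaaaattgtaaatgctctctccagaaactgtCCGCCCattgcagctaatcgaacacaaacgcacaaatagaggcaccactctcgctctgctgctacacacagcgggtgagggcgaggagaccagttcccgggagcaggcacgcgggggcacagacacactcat
Chrm3: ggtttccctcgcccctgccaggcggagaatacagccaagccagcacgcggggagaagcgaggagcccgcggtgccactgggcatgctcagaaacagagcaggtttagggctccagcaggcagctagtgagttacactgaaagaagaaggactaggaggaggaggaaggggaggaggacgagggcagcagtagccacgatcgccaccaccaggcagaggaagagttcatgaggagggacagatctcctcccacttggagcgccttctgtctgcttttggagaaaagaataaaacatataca
Chrm4: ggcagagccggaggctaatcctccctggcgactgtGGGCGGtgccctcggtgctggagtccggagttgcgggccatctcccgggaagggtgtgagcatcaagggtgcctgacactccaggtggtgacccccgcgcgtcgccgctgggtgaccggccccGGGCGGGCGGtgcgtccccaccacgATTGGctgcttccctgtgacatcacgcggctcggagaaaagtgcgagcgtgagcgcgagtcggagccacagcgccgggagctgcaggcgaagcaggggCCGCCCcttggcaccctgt
Chrm5: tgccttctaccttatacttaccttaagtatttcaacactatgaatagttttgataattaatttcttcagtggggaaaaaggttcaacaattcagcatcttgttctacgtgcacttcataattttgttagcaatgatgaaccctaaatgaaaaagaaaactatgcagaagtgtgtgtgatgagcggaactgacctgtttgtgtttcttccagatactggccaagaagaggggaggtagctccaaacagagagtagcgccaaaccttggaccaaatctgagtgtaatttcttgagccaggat

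The search on both strands covered 5 motifs, which were GGGCGG (the GC box), the CAAT box CCAAT, the core TATA box TATAAA, the cAMP response element TGACGTCA and TTCAGCACC, the core of the element bound by the neuronal silencer REST. Chrm4 held 4 matches to GGGCGG, of which 2 overlap each other, and 1 to CCAAT. Chrm2 held 1 match to each of these motifs, and the windows of Chrm3 and Chrm5 held none of the 5. GGGCGG occurs in 35.9% of the 32544 promoters of the table, CCAAT in 37.4%, TATAAA in 13.6%, TGACGTCA in 1.8% and TTCAGCACC in 0.372%. The windows also differ in base composition, with a GC content of 70.7% for Chrm4, 57.3% for Chrm3, 52.7% for Chrm2 and 39% for Chrm5, against a median of 53% over all promoters. The Chrm4 window lies at a RefSeq start 5060 bases upstream of the GENCODE start of the gene. That of Chrm5 lies at a RefSeq start 48 bases upstream of the GENCODE start, which is annotated with a coding length only. Whether either window holds the promoter in use was not tested. A match is only a string of letters, and binding was not measured.

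Chrm1 was the most abundant muscarinic receptor RNA in the hippocampus. It was read at 264, 249.3 and 241 CPM in the 3 KO hippocampi (replicates 1, 2 and 3, the order used throughout), against 258, 265 and 253 CPM in WT hippocampi. In the cerebellum the same receptor was close to absent, at 1.28, 0.689 and 0.484 CPM in KO against 0.657, 0.772 and 0.818 CPM in WT, or 14 to 33 counts a library. KO and WT overlapped in both tissues. Chrm3, the other abundant Gq-coupled receptor and the main one of smooth muscle and glands outside the brain, was read at 64.2, 56.9 and 69.7 CPM in KO hippocampi against 63.7, 62.3 and 67.8 CPM in WT. Its cerebellar levels were 4.19, 3.16 and 1.52 CPM in KO and 1.31, 1.83 and 1.95 CPM in WT. The KO cerebellum held both the highest and an intermediate value, so the groups overlapped. Chrm5, best known from dopamine neurons of the midbrain, was the rarest receptor. It had 3.89, 2.94 and 1.34 CPM in KO hippocampi against 3.63, 2.99 and 1.63 CPM in WT, lowest in replicate 3 of both genotypes (41 and 44 counts). In KO cerebella Chrm5 had 5, 10 and 5 counts, against 1, 0 and 3 counts in WT cerebella, where every library was at or under the floor.

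Of the Gi-coupled receptors, Chrm2, the presynaptic autoreceptor of many cholinergic terminals and the receptor of the cardiac pacemaker, differed least between the tissues. Its values were 9.18, 12.03 and 11.97 CPM in KO hippocampi against 12.9, 10.8 and 10.5 CPM in WT, and 15.9, 10.2 and 6.91 CPM in KO cerebella against 8.25, 7.18 and 7.74 CPM in WT. The KO cerebella spread over a wider range than the WT cerebella and included both the highest and the lowest of the 6. Chrm4, the receptor of striatal projection neurons, was read at 17.5, 16.6 and 18.8 CPM in KO hippocampi against 11.7, 14.5 and 13.4 CPM in WT, the one receptor of the 5 whose genotypes did not overlap there, as for 9.67% of all genes tested. In the cerebellum it was low, at 1.05, 0.798 and 1.24 CPM in KO and 1.56, 1.001 and 1.10 CPM in WT.

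**Figure D1:**
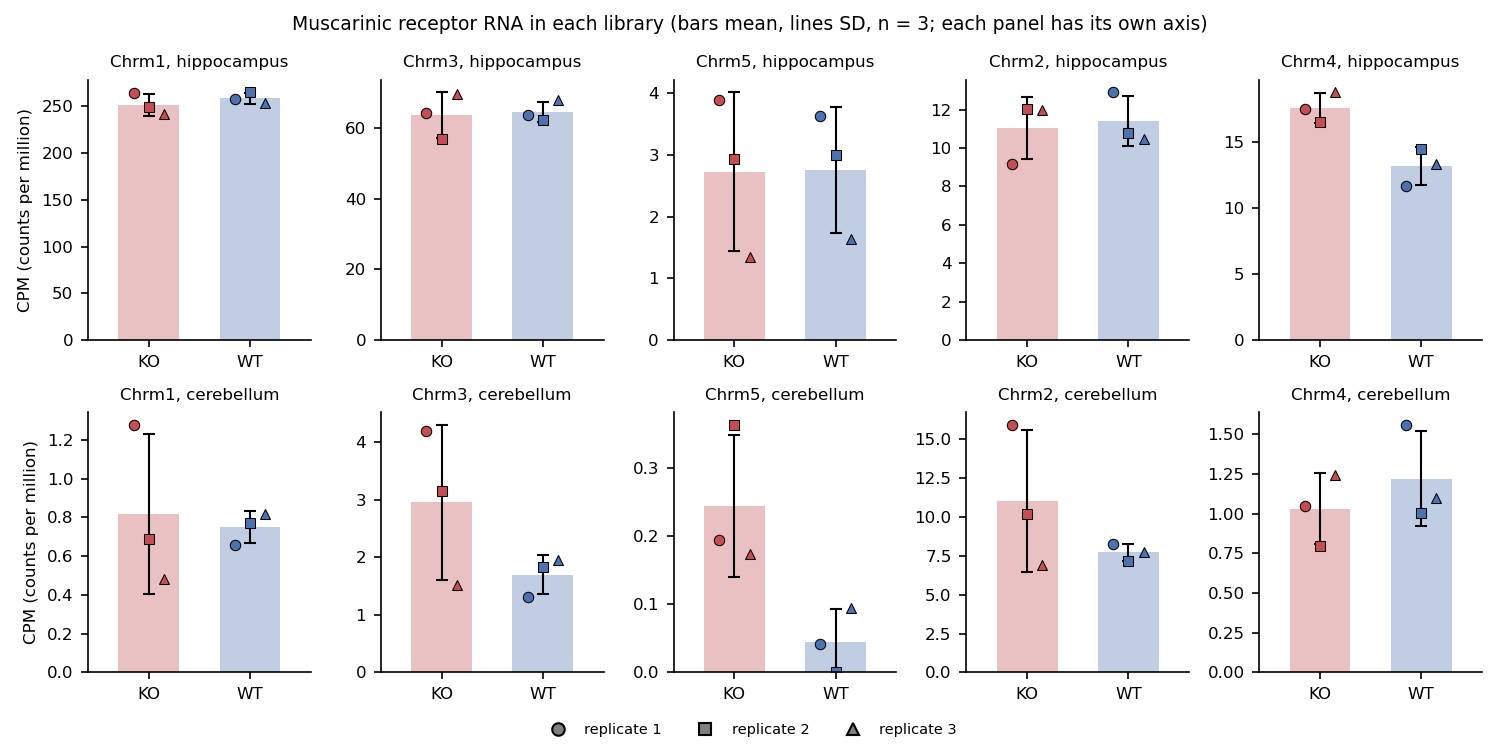
CPM of each receptor in each library, hippocampus in the upper and cerebellum in the lower row, with KO left of WT. Bars are means, lines SD (n = 3), symbols the replicates, and every panel has its own axis: Chrm1 reaches 265 CPM in hippocampus and at most 1.28 CPM in cerebellum, and Chrm4 is the only hippocampal panel in which all KO libraries lie above all WT libraries.

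Scaled per kilobase of annotated exon, levels can be ordered between receptors, with the limit given above for Chrm4 and Chrm5. The place of Chrm4 beside Chrm3 rests on this scaling. In plain CPM of hippocampus, Chrm3 had a mean of 63.6 against 17.6 for Chrm4 in KO, and 64.6 against 13.2 in WT. In the hippocampus Chrm1 stood first, at 38.8 ± 1.79 CPM per kilobase in KO and 39.9 ± 0.898 in WT (SD, n = 3 each). Chrm3 and Chrm4 followed. In KO hippocampi Chrm4 (11.5 to 13.0 CPM per kilobase) lay above Chrm3 (9.09 to 11.2) in every library, while in WT hippocampi Chrm4 (8.10 to 10.1) and Chrm3 (9.96 to 10.8) overlapped. Chrm2, at 1.83 ± 0.268 in KO and 1.88 ± 0.217 in WT, and Chrm5, at 1.70 ± 0.805 and 1.72 ± 0.638, overlapped at the bottom of the order. In the cerebellum Chrm2 led, at 1.82 ± 0.755 CPM per kilobase in KO and 1.28 ± 0.0889 in WT. Chrm4 came next with 0.715 ± 0.155 in KO and 0.848 ± 0.207 in WT, and Chrm3 followed with 0.473 ± 0.215 and 0.272 ± 0.0541. Chrm4 and Chrm3 overlapped in KO cerebella and did not in WT. Chrm1 and Chrm5 overlapped at 0.126 ± 0.0637 and 0.152 ± 0.0651 in KO cerebella, and in WT cerebella Chrm1 (0.101 to 0.126) lay above Chrm5 (0 to 0.059).

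The hippocampus held more RNA of Chrm1, Chrm3 and Chrm4 than the cerebellum in both genotypes. Of Chrm1, Chrm2, Chrm3 and Chrm4, which passed the filter on low counts in each tissue alone, 3 of 4 were higher in hippocampus in KO animals by edgeR's quasi-likelihood test at a Benjamini-Hochberg adjusted p under 0.05. Of the 18200 genes tested there, 64.1% were called in either direction and 31.6% were higher. In WT animals 4 of 4 were higher, against 66.1% of 18128 genes called and 33.1% higher. Chrm5 is described apart, because it entered these fits only through the hippocampus libraries, where it is high. Chrm1 had the largest change of the 4, 342-fold in KO animals (log2 fold change 8.42 ± 0.15, SE, adjusted p = 5.63e-10) and 374.5-fold in WT animals (8.55 ± 0.08, adjusted p = 7.25e-16), where it ranked 2 of all genes by p. Chrm3 was 23.9-fold higher in KO animals (95% interval 16.8 to 34.0, adjusted p = 1.15e-07) and 41.1-fold higher in WT animals (35.2 to 47.9, adjusted p = 1.22e-13). The interval of one genotype did not reach that of the other, and the test of that difference is given below. Chrm4 was 18.7-fold higher in KO animals (14.7 to 23.7, adjusted p = 1.68e-08) and 12.1-fold higher in WT animals (9.35 to 15.7, adjusted p = 8.80e-10).

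Chrm2 was the receptor of these 4 whose tissue contrast was smallest. Chrm2 was 1.63-fold higher in WT hippocampus than in WT cerebellum (1.36 to 1.95, adjusted p = 1.77e-04), without overlap between the libraries. In KO animals Chrm2 did not pass, at 1.11-fold (0.748 to 1.65, adjusted p = 0.620), and the tissues overlapped. That outcome in KO animals depended on a single library. Without KO cerebellum replicate 1 Chrm2 passed, with a log2 fold change of 0.52 and an edgeR adjusted p of 0.0367. Without KO cerebellum replicate 3 the log2 fold change was -0.08. Chrm5, with 41 to 97 counts in hippocampus and 0 to 10 in cerebellum, did not pass the filter within the cerebellum, so its direction was fixed by the filter and its fitted fold change is not given as a test. Its ratio of summed counts, hippocampus over cerebellum, was 10.9 in KO animals (225 against 20 counts, exact 95% interval 6.88 to 18.2) and 62.6 in WT animals (223 against 4 counts, 24.1 to 232), with intervals that cover counting error only. Of the other 4 receptors, the libraries of the tissues did not overlap for 3 in KO and for 4 in WT animals, where 72.6% and 72.4% of all genes tested did not.

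**Figure D2:**
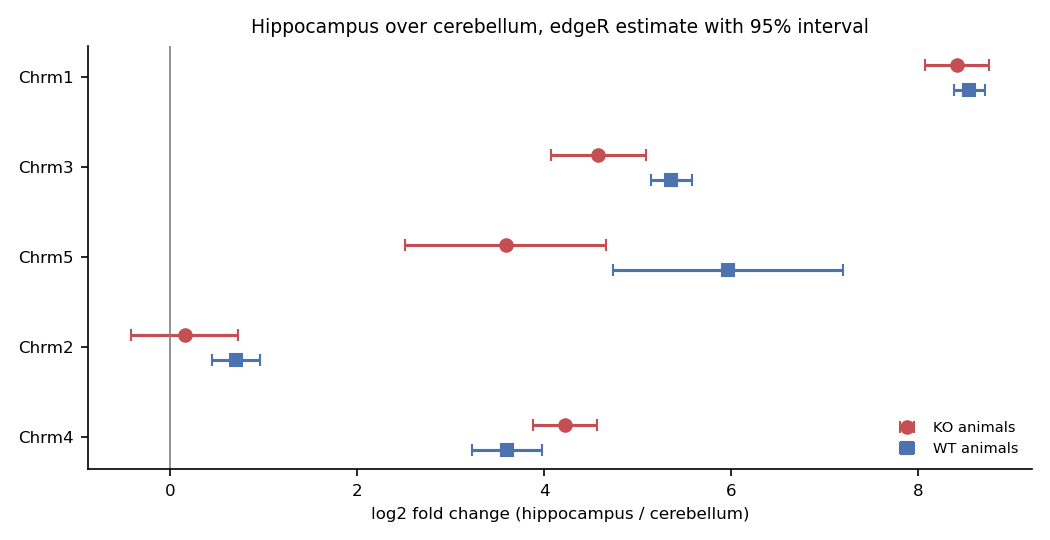
Log2 fold change of hippocampus over cerebellum for each receptor in KO animals (circles) and WT animals (squares), with the 95% interval of the edgeR fit (n = 3 libraries a group). Chrm1 lies above 8 in both genotypes, Chrm3 and Chrm4 lie above 3, the KO interval of Chrm2 spans 0, and Chrm5 entered the fits only through its hippocampus counts.

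The comparison within the hippocampus asked how the receptors differ with the Syt14 genotype in a region tied to mood. Chrm4, with 17.6 ± 1.12 CPM in KO and 13.2 ± 1.44 CPM in WT hippocampi (SD, n = 3 each), stood furthest from WT of the 5, at 1.33-fold with a 95% interval of 1.15 to 1.55. Over all genes tested this did not pass: the log2 fold change of 0.41 ± 0.10 (SE) had an unadjusted edgeR p of 0.00133, which ranked 19 of 17693, and an adjusted p of 0.995. The other 4 receptors were close to the WT level. The KO to WT ratio was 0.97 for Chrm1 (0.908 to 1.04, adjusted p = 0.995), the narrowest interval of the 5. On the log2 scale Chrm3 stood at -0.03 ± 0.07 (interval of the ratio 0.881 to 1.09) and Chrm2 at -0.04 ± 0.13 (0.80 to 1.18), both with an adjusted p of 0.998. The interval of Chrm5, from 0.571 to 1.68 times the WT level around a log2 fold change of -0.03 ± 0.36, was the widest of the 5.

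None of the 5 receptors passed in the hippocampus by edgeR's quasi-likelihood test, as 0 of 17693 genes did (0% called), while 1 of 5 had an unadjusted p under 0.05, against 4.34% of all genes. DESeq2 and limma-voom also called 0 of the 5. Chrm4 was the only one of the 5 whose genotypes did not overlap. Tested alone by exact permutation of its log2 CPM, it reached p = 0.1 (two-sided), the smallest value that 3 against 3 libraries allow. With each library left out the Chrm4 difference was 0.33 to 0.48 on the log2 scale. Its direction was bound to hold there, since the genotypes did not overlap. Because Chrm4 is a receptor of the striatum, markers of that neighbouring region are set beside it. The 8 striatal markers summed to 102, 80.3 and 103 CPM in KO hippocampi against 93.5, 87.6 and 96.4 CPM in WT, which overlap. The 6 markers of the endothelium summed to 176 to 208 CPM in KO hippocampi against 213 to 241 CPM in WT, without overlap, and had a median log2 fold change of -0.23, with 4 of 6 at an unadjusted edgeR p under 0.05. The 8 markers of the meninges summed to 79.3, 84.7 and 67.2 CPM in KO against 88.8, 148 and 80.8 CPM in WT hippocampi, which overlap, with a median of -0.57 and 4 of 8 at an unadjusted p under 0.05. Markers of the thalamus reached 217 CPM in KO replicate 2 against 94.1 to 123 CPM in the other 5 libraries. The part of any of these tissues and cell types in the Chrm4 difference was not tested.

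**Figure D3:**
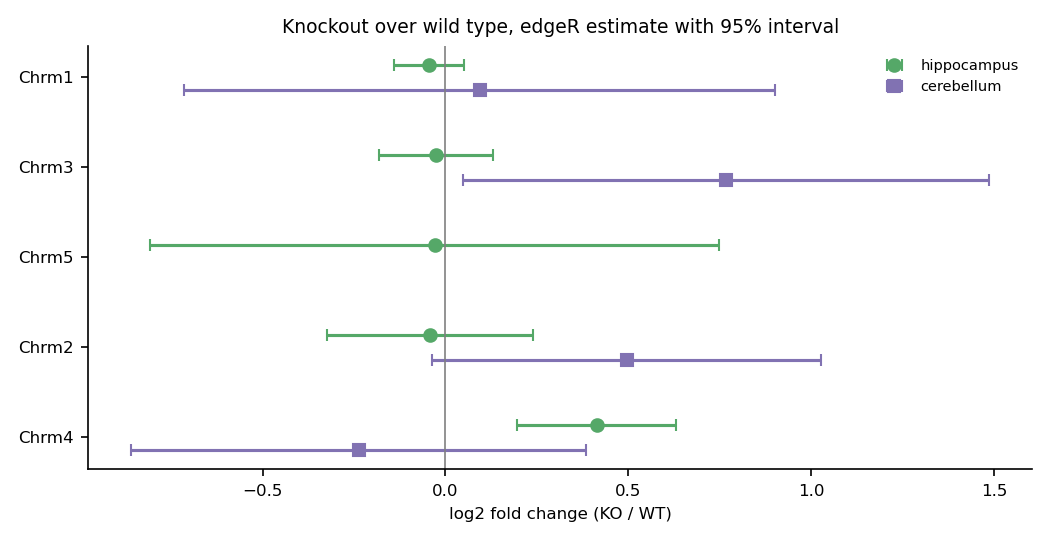
Log2 fold change of KO over WT for each receptor in hippocampus (circles) and cerebellum (squares), with the 95% interval of the edgeR fit (n = 3 libraries a group); Chrm5 was too low in cerebellum to be tested. The intervals of Chrm4 in hippocampus and Chrm3 in cerebellum lie above 0, and those of the other tests span it.

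The comparison within the cerebellum addressed a region tied to motor coordination, and none of the 4 receptors tested passed there. Chrm3 was read at 2.96 ± 1.34 CPM in KO cerebella against 1.70 ± 0.338 CPM in WT (SD, n = 3 each), 1.70-fold (95% interval 1.03 to 2.80, log2 fold change 0.77 ± 0.32, adjusted p = 0.717). Chrm2 was read at 11.003 ± 4.57 CPM in KO against 7.72 ± 0.538 CPM in WT, 1.41-fold (0.976 to 2.04, log2 fold change 0.50 ± 0.24, adjusted p = 0.740). Chrm1 at 0.09 ± 0.36 (adjusted p = 0.976) and Chrm4 at -0.24 ± 0.28 (adjusted p = 0.910) on the log2 scale were nearer to WT, with intervals of the ratio from 0.61 to 1.87 and from 0.551 to 1.31. Chrm5 fell under the filter on low counts; its summed counts were 20 in KO against 4 in WT cerebella, a ratio of 5.54 (exact 95% interval 1.85 to 22.3, counting error only), and by exact permutation it reached p = 0.1, again the smallest possible. The libraries of KO and WT cerebella did not overlap for Chrm5, as for 12% of the genes tested.

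Over all genes, edgeR called 2 of 17733 in the cerebellum (0.0113%), and 36 with the replicate number as a block; the block called none of the receptors. DESeq2 and limma-voom called 0 of the 4 as well. At an unadjusted p under 0.05 stood 1 of the 4, Chrm3 at 0.0389, where 6.77% of all genes did. The KO values of Chrm2 and Chrm3 followed single libraries. KO cerebellum replicate 1 was the highest of the 6 cerebella for Chrm1, Chrm2 and Chrm3, replicate 2 the second highest for Chrm2 and Chrm3, and replicate 3 lay below every WT cerebellum for Chrm1 and Chrm2. Without KO replicate 1 the log2 fold change was 0.13 for Chrm2 and 0.43 for Chrm3. Without KO replicate 3 it was 0.74 for Chrm2 and 1.08 for Chrm3, with adjusted p-values of 0.154 and 0.117, and 33 genes were called over the whole table. Without WT replicate 3 that count was 4.

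The same KO cerebella differed in markers of the adjoining brainstem. The 10 brainstem markers summed to 27.5, 49.4 and 7.81 CPM in KO cerebella against 14.8, 11.9 and 10.98 CPM in WT cerebella, and to 2.15 to 3.08 CPM in all hippocampi. Dbh, the enzyme that makes noradrenaline in the locus coeruleus, had 93, 299 and 3 counts in KO cerebella and 27, 13 and 17 counts in WT. Of the 10 markers, 3 were above 3 counts in all 6 cerebella and none was at 0 in all of them. In the hippocampi 3 were above 3 counts throughout, and Hoxa2 and Hoxb3 were among those at 0. KO replicates 1 and 2 were the highest 2 of the 6 cerebella for the marker sum, Chrm2 and Chrm3 alike, but replicate 2 led for the markers and replicate 1 for the receptors. KO replicate 3 was the lowest for the markers and for Chrm2 and lay within the WT range for Chrm3. The choroid plexus markers summed to 1017, 1883 and 26.8 CPM in KO and 2012, 2817 and 1082 CPM in WT cerebella. In the mean log2(CPM + 0.5) over a list, which weights its markers equally, KO replicate 1 was the highest of the 6 cerebella for several lists. This mean was 2.97, 2.64 and 2.19 in KO against 2.41, 2.36 and 2.26 in WT cerebella for the 8 striatal markers, which include Drd2. For the 8 markers of GABAergic interneurons it was 4.80, 4.53 and 4.11 in KO against 4.38, 4.35 and 4.30 in WT. KO replicate 1 also led for the CA1 and CA3 pyramidal cell markers, at 3.29 in that library, 3.07 and 2.89 in the other KO and 2.86 to 3.02 in WT cerebella. For the thalamic markers it stood at 4.27, against 3.85 and 3.97 in the other KO and 3.91 to 3.998 in WT cerebella. In summed CPM KO replicate 1 led for none of these 4 lists. It also led for the endothelial markers, at 5.37, with 5.36 and 5.32 in the other KO and 5.24 to 5.30 in WT cerebella. The part of any of these tissues and cell types in the receptor levels was not tested.

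**Figure D4:**
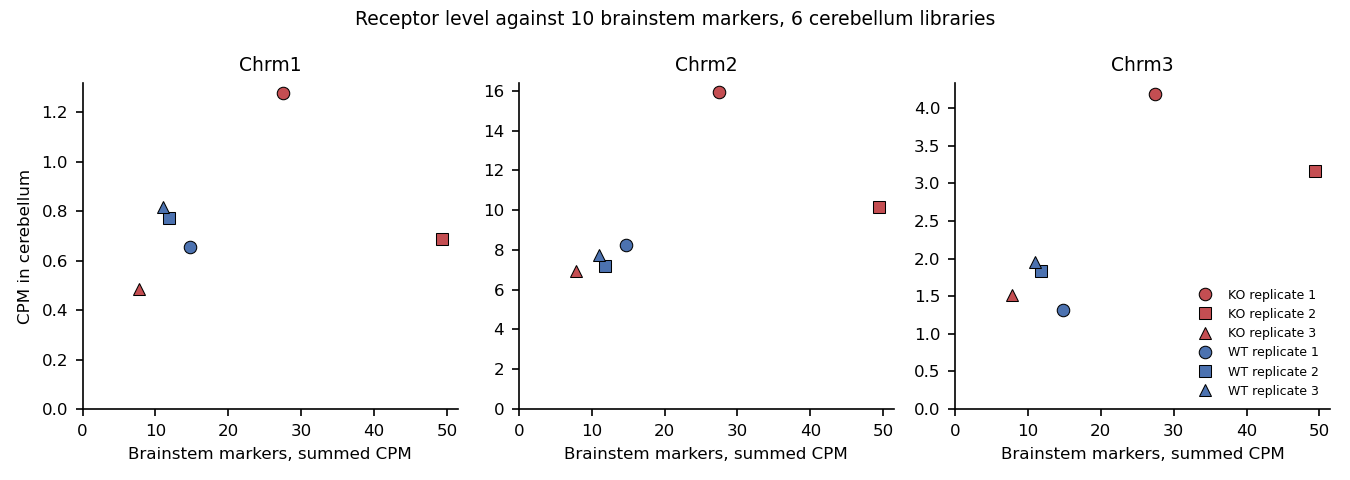
CPM of Chrm1, Chrm2 and Chrm3 against the summed CPM of 10 brainstem markers in the 6 cerebellum libraries (KO red, WT blue, shapes for replicates). KO replicate 1, at 27.5 CPM of markers, is the highest for all 3 receptors, KO replicate 2 has the highest marker sum at 49.4 CPM, and KO replicate 3 has the lowest, 7.81 CPM.

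The genotype effects in the tissues were compared with an interaction term over all 12 libraries, as the effect in hippocampus minus that in cerebellum. None of the 5 receptors passed by edgeR's quasi-likelihood test, where 2 of 19027 genes did (0.0105%). Of the 4 receptors that passed the filter in each tissue alone, 2 stood at an unadjusted p under 0.05, Chrm3 at 0.0235 and Chrm4 at 0.0270, against 5.34% of all genes. Chrm3 differed by -0.77 ± 0.31 on the log2 scale (SE, adjusted p = 0.897), and Chrm4 in the opposite direction by 0.63 ± 0.26 (adjusted p = 0.897). Chrm5 differed by -2.37 ± 1.011 (adjusted p = 0.918), but it entered this fit only through its hippocampus counts. Chrm2, at -0.54 ± 0.31, and Chrm1, at -0.12 ± 0.27, had adjusted p-values of 0.931 and 0.991. DESeq2 and limma-voom called 0 of the 5. Without KO cerebellum replicate 3 the Chrm3 difference was -1.09 with an adjusted p of 0.0482, and 44 genes were called in all; without WT hippocampus replicate 1 that number was 4.

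The make-up of the receptor RNA differed between the tissues more than between the genotypes. The Gq-coupled receptors Chrm1, Chrm3 and Chrm5 made up 79.6, 78.5 and 76.6% of the summed CPM per kilobase in KO hippocampi against 83.6, 81.6 and 82.2% in WT hippocampi. In the cerebellum they made up 22.7, 27.3 and 17.5% in KO against 12.1, 18.0 and 19.6% in WT. Over the 6 animals the share was 80.4 ± 2.59% in hippocampus and 19.5 ± 5.14% in cerebellum (SD), a difference of 60.8 percentage points with the same sign in 6 of 6 animals (exact sign-flip permutation test, two-sided, p = 0.03125, the smallest that 6 pairs allow). With any 1 animal left out the smallest possible value is p = 0.0625 by that exact test, so it could not pass. Between the genotypes the share differed by -4.21 points in hippocampus, where the groups did not overlap (exact permutation test, p = 0.1, the smallest possible), and by 5.97 points in cerebellum, where they did (exact permutation test, p = 0.3). Chrm4 is part of the sum that the share divides by, and it alone among the receptors did not overlap between the genotypes in hippocampus. The hippocampal difference of the share is therefore not a result separate from Chrm4. Without division by exon length the hippocampal difference was -1.28 points and the cerebellar one 2.74 points.

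In the hippocampus Chrm1 alone supplied 59.9 ± 1.75% of the summed level in KO and 63.3 ± 0.304% in WT, and Chrm4 18.9 ± 1.23% in KO and 14.5 ± 1.39% in WT. In the cerebellum Chrm2 supplied 54.1 ± 6.82% in KO and 50.3 ± 1.38% in WT, and Chrm4 23.4 ± 10.5% in KO and 33.1 ± 5.03% in WT. All these shares rest on the annotated exon lengths, of which those of Chrm4 and Chrm5 are coding only. The summed level of the 5 was 64.7 ± 2.16 CPM per kilobase in KO and 63.0 ± 1.38 in WT hippocampi, and 3.28 ± 0.9752 in KO and 2.54 ± 0.246 in WT cerebella.

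**Figure D5:**
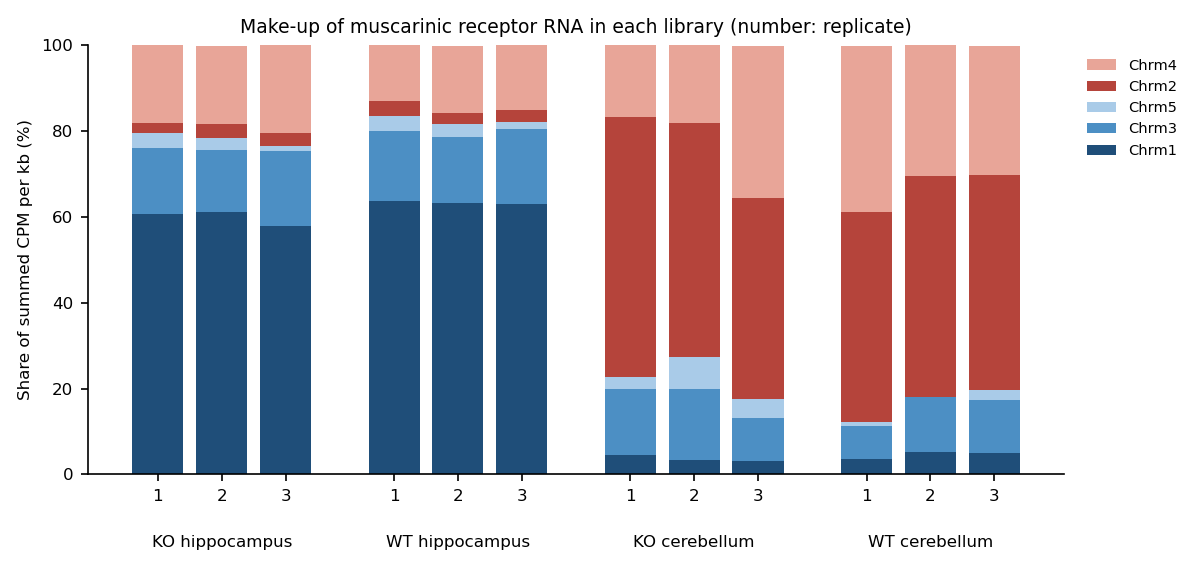
Share of each receptor in the summed CPM per kilobase of the 5 in every library, Gq-coupled receptors in blue and Gi-coupled ones in red. Blue fills 76.6 to 83.6% of the bars in hippocampus and 12.1 to 27.3% in cerebellum.

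Other genes of cholinergic signalling were described from 5 lists, with calls by edgeR at an adjusted p under 0.05 and values given as log2 fold changes of hippocampus over cerebellum with their SE. Over all genes, 64.1% were called in KO and 66.1% in WT animals, 31.6% and 33.1% were higher in hippocampus, and the medians were -0.03 and -0.02. Of the 18 genes of the Gq and phospholipase C arm, 13 were higher and 5 lower in hippocampus than in cerebellum, in KO and in WT animals alike (median log2 fold change 0.81 and 0.71). Gna14 passed the filter on low counts within the hippocampus alone, so its direction in these fits was fixed by the filter. Those higher included Kcnq5 and Kcnq3, subunits of the M-type channel that Gq-coupled receptors close, at 4.59 ± 0.19 and 2.48 ± 0.07 in KO animals and 5.71 ± 0.10 and 2.84 ± 0.07 in WT animals. Prkca, a protein kinase C, was higher by 2.06 ± 0.05 in KO and 2.25 ± 0.05 in WT animals. Plcb4, the phospholipase C of most Purkinje cells, was lower by these fits, at -3.44 ± 0.19 in KO and -3.61 ± 0.10 in WT animals. Of the 14 genes of the Gi and Go arm, 7 were higher and 4 lower in both genotypes (median 0.17 in KO and 0.44 in WT), a share called not far above that over all genes. They included the adenylyl cyclases Adcy2 (1.95 ± 0.07 in KO, 1.99 ± 0.05 in WT) and Adcy5 (1.10 ± 0.07 in KO, 1.22 ± 0.05 in WT), the channel subunit Kcnj6 (2.02 ± 0.12 in KO, 1.86 ± 0.08 in WT) and Gnaz, a G protein of this class (1.252 ± 0.06 in KO, 1.30 ± 0.06 in WT).

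The other 3 lists are to be read against the same shares over all genes, 64.1% called in KO and 66.1% in WT animals. Of the 16 receptor kinases, arrestins and RGS proteins, which end the signal, 7 were higher and 7 lower in KO animals, and 7 higher and 6 lower in WT animals (median 0.0014 in KO and -0.05 in WT). Rgs4 was higher in hippocampus at 2.94 ± 0.10 in KO and 3.17 ± 0.06 in WT animals, while Rgs8, an RGS protein of Purkinje cells, stood at -3.74 ± 0.10 and -3.64 ± 0.07. Of the nicotinic receptors, 11 of 16 were tested in KO animals, with 5 higher and 3 lower in hippocampus, and 10 in WT animals, also with 5 higher and 3 lower (median 0.50 in KO and 1.34 in WT). Among those higher, Chrna1 and Chrna5 passed the filter on low counts within the hippocampus alone. Among those lower, Chrnb4 passed it within the cerebellum alone, so the directions of these genes were fixed by the filter. Chrna7, the subunit of the fast calcium-permeable receptor of hippocampal interneurons, was higher at 2.36 ± 0.14 in KO and 2.54 ± 0.10 in WT animals, and Chrnb2 lower at -0.64 ± 0.06 and -0.59 ± 0.05. Chrna4 stood at 1.71 ± 0.20 in KO and 1.74 ± 0.12 in WT animals. Chrna5, also called higher, had 5.70 to 6.35 CPM in KO hippocampi against 0 to 0.233 CPM in KO cerebella, and 6.32 to 6.97 CPM in WT hippocampi against 0 to 0.0572 CPM in WT cerebella. Of the 8 genes of acetylcholine synthesis, transport and breakdown, 6 were tested. In KO animals 4 were lower in hippocampus and none higher, and in WT animals 1 was lower (median -1.26 in KO and 0.04 in WT). Colq, the collagen tail that anchors acetylcholinesterase, was the one called lower in both. It passed the filter on low counts within the cerebellum alone, where it is high, so its direction was fixed by the filter. Slc5a7, the choline transporter of cholinergic terminals, was lower at -2.17 ± 0.62 in KO animals (edgeR adjusted p = 0.0120), while its value in WT animals was 0.37 ± 0.51 (adjusted p = 0.544).

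Between KO and WT, edgeR's quasi-likelihood test called 0 genes of the 5 lists in either tissue. In the hippocampus 3 of 62 list genes tested had an unadjusted p under 0.05 (4.34% of all genes did), all in the Gq arm. Those with the smallest p were Dgkz, a diacylglycerol kinase, at 0.13 ± 0.05, and Kcnq5 at -0.21 ± 0.08 on the log2 scale (edgeR adjusted p = 0.995 for both). In the cerebellum 9 of 62 list genes did (6.77% of all genes). Slc5a7 was read at 5.23, 5.70 and 0.726 CPM in KO cerebella and 1.40, 0.315 and 0.440 CPM in WT (log2 fold change 2.49 ± 0.70, edgeR adjusted p = 0.628), high in the 2 KO libraries with high brainstem markers. On the log2 scale Kcnq5 stood at 0.88 ± 0.27 (adjusted p = 0.644) and the nicotinic subunit Chrnb4 at 0.56 ± 0.19 (adjusted p = 0.684). The list medians lay between -0.05 and 0.02 in hippocampus, beside 0.0017 over all genes. In cerebellum they were 0.50 for the nicotinic receptors, 0.31 for acetylcholine handling and between -0.02 and 0.02 for the other lists, beside 0.0025 over all genes and 0.29 over the 4 muscarinic receptors tested. For the difference of the effects, 7 of 65 list genes stood under 0.05 unadjusted (5.34% of all genes) and none passed, with the smallest p for Kcnq5 (-1.10 ± 0.27, adjusted p = 0.723).

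For each receptor the 3 protein coding genes whose log2(CPM + 0.5) followed it most closely over the 12 libraries were looked up among 13799 genes, as a description in which the tissue contrast is the common part. Chrm1 was most like Fam171b (Pearson r = 0.9996), Hpca (0.9996) and Ptk2b (0.9995). For Chrm3 these were Prss12, Pak6 and Lmo3, each at 0.998. For Chrm4 they were Zfp697 (0.998), Unc13a (0.996) and Fbxl16 (0.996), and for Chrm5 Ppp1r14c (0.987), Dcaf12l2 (0.984) and Pappa2 (0.983). Chrm2, whose levels differed least between the tissues, had looser neighbours: Zbtb7c (0.931), Drd2 (0.929) and Mthfd2l (0.905). Drd2, a dopamine receptor, was read at 4.50, 1.81 and 0.657 CPM in KO cerebella against 0.657, 0.772 and 0.786 CPM in WT cerebella, with its highest value in the same library as Chrm2.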

How the data were processed

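Poly(A) RNA of hippocampus and cerebellum from 3 KO and 3 WT animals was sequenced with a strand-specific dUTP library, per the labels' protocols. The authors deposited raw counts per gene, 1 table per tissue; reads were handled with Trimmomatic 0.39, STAR 2.7.10 and featureCounts 2.0.3 on mm10, also listed as GRCm38, per the submitters' processing notes. Counting used an annotation release and strand setting not given in the sources used here. Of 54446 identifiers, 54409 were found in GENCODE M21. Libraries of 1 group differed beyond resampling (chi-square per gene 3.91 to 11.6). Replicates are separate animals.

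Each contrast was fitted with edgeR 4.0.16 (R 4.3.3) on the deposited counts of its 6 libraries, the interaction on all 12, after filterByExpr (at least 10 counts and 15 in total) and TMM scaling, and tested by the two-sided quasi-likelihood F test. A call is a Benjamini-Hochberg adjusted p, over all genes tested, under 0.05. Fold changes come from the fit and their 95% intervals from its t quantile. Displayed levels are plain CPM, computed here, and CPM per kilobase divides by the exon bases of the annotation. Shares and single genes were tested by exact permutation over libraries or animals (scipy 1.17.1) on log2(CPM + 0.5) or on the share. Intervals of summed counts cover counting error only. The fits were tested on simulated data.

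Alternatives were DESeq2 1.42.0, its size factors in edgeR, limma-voom (limma 3.58.1), no filter on low counts, all 12 libraries in 1 fit, each library left out and the replicate or animal block. The main edgeR fits used no block, so they did not pair libraries by number or by animal. In the cerebellum, same-numbered KO and WT libraries deviated together (r = 0.162, 0.225 and 0.347 over 15397 genes). The replicate block there took the numbers as pairs, which rests on these correlations, since the labels tie no number to a litter or day. For the tissue contrasts and the interaction the block was the animal.

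The receptors, gene lists and tests were chosen with earlier results of these data known. Named list genes are a choice, made with their values known, among the up to 4 genes called per list and contrast in order of adjusted p, or, with none called, the 2 with the smallest p, carried to the other genotype or contrast; any other gene was named after its values were seen. The genes most alike a receptor are the protein coding genes with at least 1 mean CPM and the highest Pearson r of log2(CPM + 0.5).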

Additional observations from a re-analysis of the deposited data

How the results depend on the processing

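Of 313 receptor fold changes computed under an alternative, 297 kept their direction and their side of the threshold, 5 newly passed, 0 stopped passing and 11 turned round, and no alternative ended a call of a receptor. Among the 313 are 12 of Chrm5 between the tissues of KO animals, 12 in WT animals and 17 for its difference of the effects. Chrm5 entered those main fits only through its hippocampus counts, so that these rows, all unchanged, give no support. The turns concern differences within their error: Chrm1 in KO against WT cerebellum was -0.024 with limma-voom and -0.37 to 0.36 with 1 library left out. With 1 library left out, Chrm2 in KO against WT hippocampus ranged over -0.11 to 0.070, Chrm3 over -0.10 to 0.046 and Chrm5 over -0.37 to 0.30, Chrm2 in hippocampus against cerebellum of KO over -0.083 to 0.52, and the Chrm1 difference of the effects over -0.39 to 0.33. Without a filter on low counts the called receptors numbered 1 in hippocampus (Chrm4, 0.41, adjusted p = 0.0374), 1 in cerebellum (Chrm2, 0.49, adjusted p = 0.0137) and 1 for the difference of the effects (Chrm3, -0.77, adjusted p = 4.86e-04), while 77, 417 and 275 genes were called in all; the cause was not tested. With 1 library left out, called receptors were 0 to 1 for the difference of the effects (Chrm3, -1.09) and 4 to 5, Chrm5 included, for the tissues of KO animals, and 0 in KO against WT of either tissue. Over its alternatives Chrm4 in hippocampus lay between 0.33 and 0.48 with adjusted p-values of 0.0374 to 0.9998. The number of genes called was 0 in hippocampus, 2 with DESeq2, 2 with the replicate block and 0 to 2 with 1 library left out. In cerebellum it was 2, 36 with DESeq2, 36 with the replicate block, 4 with all 12 libraries in 1 fit and 2 to 33 with 1 library left out. For the difference it was 2, 10 with DESeq2 and 2 to 44 with 1 library left out. In hippocampus same-numbered KO and WT libraries did not deviate together over all genes (r = -0.04, -0.04 and 0.07). Single genes could still follow the number, as Chrm5 was lowest in replicate 3 of both genotypes. What a number marks is not stated. The replicate and animal blocks changed no call of a receptor. The tissue difference of the Gq-coupled share was 58.7 to 62.8 points with 1 animal left out, where 5 pairs allow no p below 0.0625 by the exact test. In KO against WT that share differed by -4.90 to -3.39 points in hippocampus and 3.58 to 8.46 points in cerebellum with 1 library left out. Depth limits Chrm5 in cerebellum, at 0 to 10 counts a library, and Chrm1 there, at 14 to 33.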
